A study of Mus musculus with 12 samples.

Results

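Expression of 10 Kupffer cell and macrophage genes, Clec4f, Vsig4, Timd4, Marco, Cd5l, Cd163, Adgre1, Csf1r, C1qa and Lyz2, was examined in the liver and duodenum of corticosterone (CORT)-treated mice. The genes were taken by symbol from the tables of both tissues, and each of the 10 was found among the 55416 genes listed. Male C57BL6/J mice, 8 weeks old at the start, were injected subcutaneously once a day for 8 weeks with CORT at 40 mg/kg or with vehicle (Veh, DMSO and Tween-80 in water). No group carried a genetic change, and both groups received the injections. For each tissue, 3 CORT libraries and 3 Veh libraries were made from 50 mg of tissue per sample, and the labels do not say whether the liver and duodenum libraries came from the same mice. Values are TPM, a measure of transcript abundance scaled to transcript length and library, and they keep no record of how many reads were counted.

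CORT is the main glucocorticoid of rodents and acts through the glucocorticoid receptor, a nuclear receptor that binds DNA. Kupffer cells are the resident macrophages of the liver. They sit in the sinusoids and take up bacteria, dying cells and haemoglobin from the blood. They carry surface receptors that serve as their markers in the liver (Clec4f, Vsig4, Timd4, Marco), not all of which are limited to Kupffer cells. The macrophages of the intestinal wall share the general genes (Adgre1, Csf1r, C1qa) but are largely replenished from blood monocytes.

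In the liver, Cd163, the receptor by which macrophages clear haemoglobin bound to haptoglobin, was 7.49-fold higher in the CORT-treated group by the ratio of group means (14.5 ± 6.12 TPM against 1.93 ± 1.03 TPM, SD, n = 3). It was the only gene of the 10 to pass the test, 1 of 10, beside 4.91% of all 11699 liver genes tested that passed it in the same direction. The lectin Clec4f, whose expression marks Kupffer cells in mice, stood at 45.9 ± 8.92 TPM in Veh and 48.7 ± 25.4 TPM in CORT (SD, n = 3). In the duodenum, Clec4f was listed at 0.15 TPM or less in every Veh library and at 5.31 TPM or more in every CORT library, and Cd163 was again higher. The test was limma on log2(TPM + 1), with p-values adjusted by the Benjamini-Hochberg method over all genes tested in a tissue. A gene passed at an adjusted p of 0.05 or less together with a fold change above 1.5. Only genes whose mean reached 1 TPM in the CORT or the Veh group were tested. The labels call the libraries biological replicates, and p-values measure only the spread between these samples. The smallest two-sided p that exact permutation of 3 against 3 libraries allows is 0.1.

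Cd163 and Clec4f are shown by their upstream sequence, since they were the genes of the 10 that passed the test in at least 1 tissue. The sequences were taken from RefSeq (GRCm38.p6), from 250 bases before the gene's start, and are written 5′ to 3′ along the gene's strand. The labels name GRCm39 as the study's build, so coordinates of both builds were not combined. Capitals mark the core letters that 1 molecule of the glucocorticoid receptor binds (AGAACA, or TGTTCT where they lie on the other strand). The Cd163 sequence is chr6:124304401-124304650 on the plus strand. The Clec4f sequences are chr6:83656188-83656366 and chr6:83656117-83656146 on the minus strand, and the bases between them are left out, since GENCODE (M21) places the last 71 bases before the RefSeq start within the span of a Clec4f transcript. The second sequence, which holds the match, lies within those 71 bases, so it is upstream of the RefSeq start only.
Cd163: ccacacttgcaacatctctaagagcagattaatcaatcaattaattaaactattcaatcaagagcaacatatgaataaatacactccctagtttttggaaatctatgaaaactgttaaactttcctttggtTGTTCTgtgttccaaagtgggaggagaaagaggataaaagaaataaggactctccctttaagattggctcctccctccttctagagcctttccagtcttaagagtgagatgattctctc
Clec4f, upstream of both starts: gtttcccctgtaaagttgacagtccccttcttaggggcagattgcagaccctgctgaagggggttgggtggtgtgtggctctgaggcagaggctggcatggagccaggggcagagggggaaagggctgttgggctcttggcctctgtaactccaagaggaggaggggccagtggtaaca
Clec4f, next to the RefSeq start: agttgtcctgacctcaggAGAACAtagatc
These core letters began at position -119 from the start in Cd163, as the reverse match, and at -12 from the RefSeq start in Clec4f, within the span of the GENCODE transcript. Of the 10 genes, 7 had an entry in the RefSeq table (Cd163, Cd5l, Clec4f, Lyz2, Marco, Timd4 and Vsig4), and 2 of these 7 held them within 250 bases, as did 16.1% of all 32851 windows of the same length searched on both strands. The palindromic glucocorticoid response element, which has the core letters on each strand, was in none of the 7 and in 0.00913% of all windows. The PU box, a motif of the macrophage factor PU.1 (GAGGAA, longer than the core that the ETS factors share), was in Cd5l, Marco and Vsig4, 3 of the 7, and in 23.3% of all windows. A match describes the letters only and is not a binding site.

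Cd163 in the liver was 2.19, 0.80 and 2.80 TPM in Veh1 to Veh3 and 8.66, 13.8 and 20.9 TPM in CORT1 to CORT3. Every CORT library was above every Veh library, as in 20.6% of all genes tested, and Cd163 was the only one of the 10 genes for which the groups did not overlap. On the log2(TPM + 1) scale it rose by 2.39 (SE 0.37, 95% interval 1.51 to 3.27, adjusted p = 0.0159, limma). The call was kept without any 1 library (2.07 to 2.69, adjusted p 0.0237 to 0.0495) and ended when genes of low level were added to those tested (adjusted p = 0.0592). In bulk tissue, a change in the number of cells of a type and a change in RNA per cell cannot be told apart.

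The Kupffer cell lectin Clec4f did not differ beyond the spread between liver libraries, at 41.8, 39.9 and 56.2 TPM in Veh and 30.0, 38.5 and 77.6 TPM in CORT. The lowest and the highest values both belonged to CORT libraries, and the difference was -0.02 on the log2 scale (95% interval -0.82 to 0.78, adjusted p = 0.977, limma). Vsig4, the complement receptor that binds C3b and iC3b, was 10.4, 11.6 and 15.6 TPM in Veh and 10.5, 21.0 and 33.3 TPM in CORT. CORT1 lay within the Veh range and the other CORT libraries above it, with a difference of 0.62 (95% interval -0.28 to 1.52, adjusted p = 0.350, limma).

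Timd4, a receptor for phosphatidylserine on dying cells that marks long-lived resident macrophages, was low, at 1.35, 1.29 and 1.79 TPM in Veh and 0.93, 1.91 and 3.39 TPM in CORT (difference 0.24, adjusted p = 0.658, limma). Marco, a class A scavenger receptor for bacteria, was 2.15, 3.49 and 2.57 TPM in Veh and 1.41, 6.12 and 11.7 TPM in CORT. Its CORT values spanned both sides of the Veh range, and the interval of its difference of 0.70 was the widest of the 10 in the liver (95% interval -0.61 to 2.01, adjusted p = 0.461, limma). Cd5l, a secreted protein of tissue macrophages also called AIM, was 24.8, 28.4 and 26.2 TPM in Veh and 19.6, 38.6 and 67.2 TPM in CORT. The Veh libraries lay close together (SD 1.83) and the CORT libraries did not (SD 24.0), so that a difference of 0.47 had an adjusted p of 0.480 (limma).

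Among the genes that macrophages of most tissues share, Adgre1, which encodes the surface antigen F4/80, was 1.90, 3.67 and 2.47 TPM in Veh and 2.87, 4.69 and 11.9 TPM in CORT (difference 0.86, 95% interval -0.15 to 1.88, adjusted p = 0.256, limma). Csf1r, the receptor for the growth factors on which macrophages depend, was 5.43, 7.94 and 7.44 TPM in Veh and 7.89, 9.80 and 18.2 TPM in CORT (difference 0.64, 95% interval -0.05 to 1.34, adjusted p = 0.223, limma). For both genes the groups overlapped by the lowest CORT library only. Of the ligands of Csf1r, Csf1 was 3.51 ± 1.10 TPM in Veh and 2.84 ± 0.481 TPM in CORT (SD, n = 3) and did not pass. Il34 did: it was 0.90, 2.19 and 1.51 TPM in Veh and 4.05, 5.33 and 5.95 TPM in CORT, and rose by 1.29 on the log2 scale (SE 0.23, adjusted p = 0.0248, limma). In the list of 9 genes for these ligands and related growth factors and receptors, 7 were tested, and Il34 was the only 1 that passed, beside 4.91% of all genes tested that rose.

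C1qa encodes 1 of the chains of C1q, the recognition protein of the classical complement pathway, which in the liver is made mainly by macrophages. It was 33.1, 47.1 and 40.4 TPM in Veh and 31.3, 45.0 and 82.4 TPM in CORT, with the groups overlapping (difference 0.29, adjusted p = 0.625, limma). The other chains moved with it from library to library, C1qb between 28.9 and 84.2 TPM and C1qc between 25.3 and 68.3 TPM, both lowest in CORT1 and highest in CORT3. Lyz2, the lysozyme of macrophages and other myeloid cells, was the gene of the 10 with the lowest difference, -0.52 (95% interval -1.48 to 0.44, adjusted p = 0.459, limma). It was 32.7, 73.8 and 43.8 TPM in Veh and 20.8, 30.3 and 55.4 TPM in CORT.

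**Figure D1:**
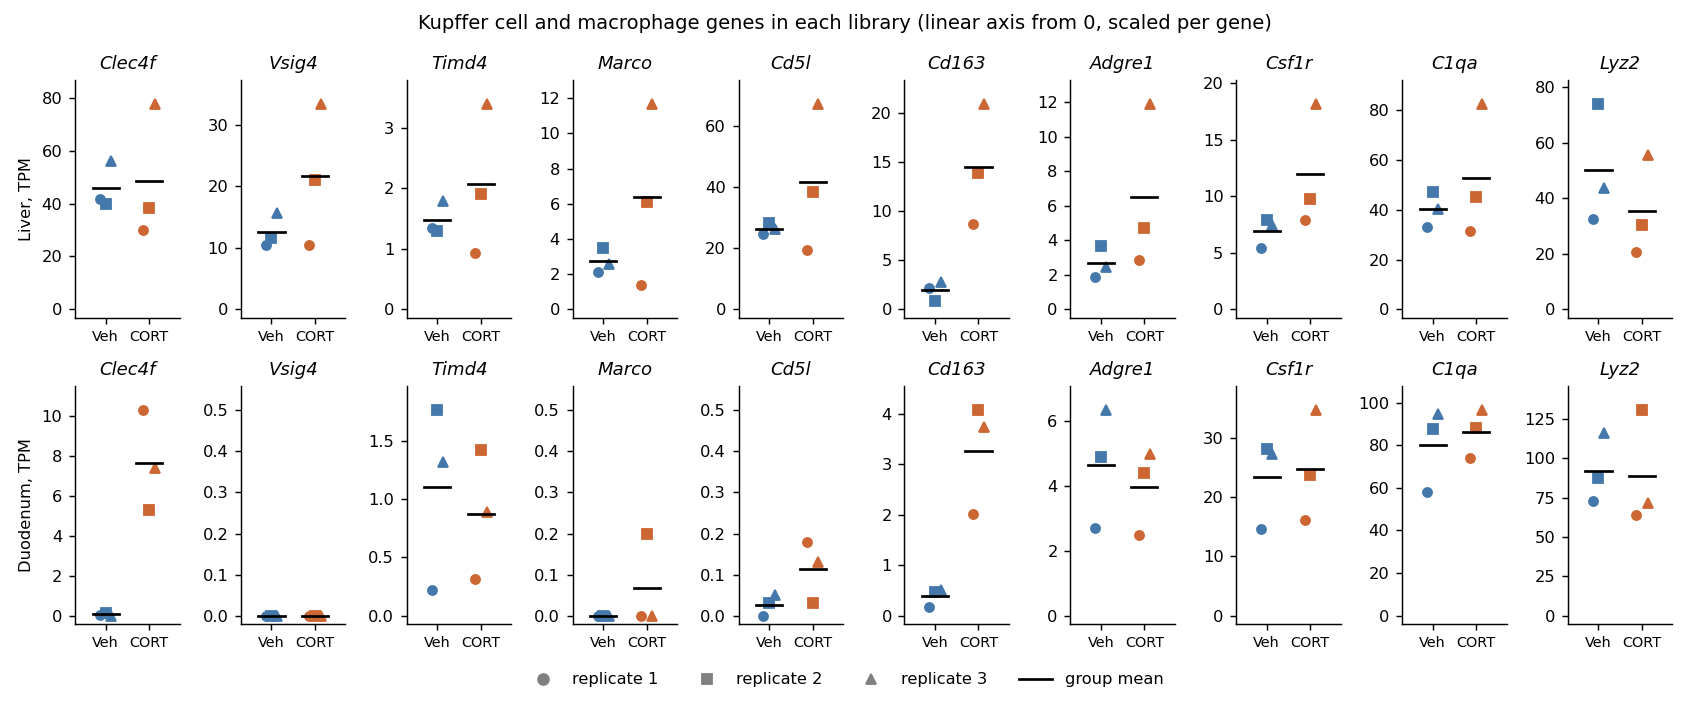
TPM of each of the 10 genes in every library (top row, liver; bottom row, duodenum; blue, Veh; orange, CORT; marker shape, replicate number; black bar, group mean of 3 libraries; linear axes from 0, scaled for each gene). In the liver the groups are apart for Cd163 alone, and CORT3 is the highest library for 9 of the 10 genes. In the duodenum they are apart for Clec4f and Cd163.

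Most of the 10 genes shared their highest or lowest liver library. CORT3 held the highest value of 9 of the 10 genes, all but Lyz2, and CORT1 the lowest value of 6. Lyz2 was highest in Veh2. Cd163 was lowest in Veh2, and its CORT1 value was above every Veh value. The summed level of the 10 was 156 to 218 TPM in the Veh libraries and 134, 210 and 382 TPM in the CORT libraries, so the CORT group held both the lowest and the highest sum. The difference was above 0 for 8 of the 10 genes, beside 58.4% of all genes tested, and the median difference of the 10 was 0.55 on the log2 scale, beside 0.08 over all genes tested. These counts depended on single libraries. Without CORT3 the median of the 10 was 0.11 and 6 of the 10 were above 0, with Clec4f at -0.41, C1qa at -0.08 and Timd4 at -0.058, and without CORT1 the median was 0.90 with 9 above 0.

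The genes whose pattern over the 6 liver libraries was most like that of the 10, by Pearson's correlation with their mean standardised level, were C1qc (r = 0.987), C1qb (r = 0.977), the class I histocompatibility gene H2-D1 (r = 0.968), Ensa (r = 0.963), the Fc receptor gene Fcgr3 (r = 0.962) and the lysosomal protease gene Ctss (r = 0.958), out of 7040 genes whose mean reached 5 TPM. These correlations rest on 6 libraries of 2 groups and are a description. None of the 6 genes passed the test between the groups.

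Other macrophage genes were compared in the same way. Of 18 further Kupffer cell genes, all tested in the liver, 16 had a difference above 0, beside 58.4% of all genes, the median was 0.73 and 1 rose, beside 4.91%, Clec1b, a C-type lectin (0.98 on the log2 scale, adjusted p = 0.0472, limma). Clec1b was 4.12, 5.82 and 5.44 TPM in Veh and 8.52, 10.2 and 15.2 TPM in CORT. For 8 of the 18, every CORT library was above every Veh library, beside 20.6% of all genes. Hpgd (44.6 TPM in Veh) and Slc40a1 (27.3 TPM), among these 8, and Nr1h3 (64.1 TPM) and Id3 (37.5 TPM) stood well above Csf1r (6.94 TPM). Clec4f stood at 45.9 TPM. The part of other cell types in the levels of the 18 was not tested. Siglec1 and Tfec, both among these 8, and Spic reached the level for testing through the CORT group alone (means of 0.493, 0.403 and 0.62 TPM in Veh). A difference was thus a condition of their being tested, as it was in the other direction for Clec12a (1.1 TPM in Veh and 0.837 TPM in CORT). Of 24 genes shared by most macrophages, 21 were tested, the median was 0.30 and 2 passed, in opposite directions. Maf, a transcription factor of resident macrophages that other cells also express, rose from 2.73 ± 0.173 to 7.04 ± 1.30 TPM (SD, n = 3, 1.10 on the log2 scale, adjusted p = 0.0122, limma). Aif1, which encodes the calcium-binding protein IBA1 used to stain macrophages, fell from 4.59 ± 0.348 to 1.65 ± 0.424 TPM (SD, n = 3, -1.09 on the log2 scale, adjusted p = 0.0164, limma), beside 2.01% of all liver genes tested that fell. Its Veh values were 4.64, 4.91 and 4.22 TPM and its CORT values 1.72, 1.20 and 2.04 TPM, so CORT3, the highest library for most macrophage genes, was below every Veh library for Aif1.

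None of the 5 monocyte genes, of the 8 genes of lipid-laden and scar macrophages or of the 9 general leukocyte genes tested in the liver passed with limma, while 1, 2 and 1 of them had an unadjusted p under 0.05. Their medians were -0.19, 0.05 and 0.03 on the log2 scale. The monocyte gene with such a p, Ace, was tested through the CORT group alone (mean 0.493 TPM in Veh and 1.45 TPM in CORT). Within the second of these lists Fabp5, a fatty acid-binding protein of such macrophages and of other cells, was 83.3, 102 and 46.6 TPM in Veh and 13.9, 39.9 and 13.7 TPM in CORT, with an adjusted p of 0.0591 (limma). The 4 B and plasma cell markers tested were all below 0 (median -0.95), none of them past the limma test and 3 with an unadjusted p under 0.05. Those 3, Cd79a, Cd79b and Jchain, reached the level for testing through the Veh group alone, so that a lower CORT level was a condition of their being tested. Their means were 1.13, 1.62 and 1.24 TPM in Veh and 0.037, 0.063 and 0.27 TPM in CORT. The T and natural killer cell list had no gene at a level to be tested.

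Partners of Cd163 and C1q were also measured. Haptoglobin (Hp), the liver protein whose complex with haemoglobin Cd163 binds, rose in the CORT-treated group, from 5522, 3897 and 2985 TPM in Veh to 7820, 11062 and 12414 TPM in CORT (1.35 on the log2 scale, adjusted p = 0.0342, limma). It was the only 1 of the 10 genes tested in that list to pass, beside 4.91% of all genes tested that rose. C3, C4b, C2, C1ra and C1s1 of the complement pathway did not pass. Hmox1, which encodes the haem-degrading enzyme that acts after this uptake, was 8.23, 16.6 and 10.3 TPM in Veh and 11.4, 14.3 and 47.6 TPM in CORT, with an adjusted p of 0.388 (limma). Only CORT3 was above the Veh range.

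Genes known to be raised by glucocorticoids in cultured macrophages were read beside Cd163, which is itself such a gene. All 12 of the 12 tested in the liver had a difference above 0, beside 58.4% of all genes, with a median of 0.75, and 2 passed, beside 4.91% of all genes tested that rose. Ms4a6b, 1 of the 12, was tested through the CORT group alone (mean 0.65 TPM in Veh and 1.85 TPM in CORT). Fkbp5, a co-chaperone of the glucocorticoid receptor induced in most cells, rose from 13.1 ± 6.19 to 248 ± 26.1 TPM (SD, n = 3, 4.23 on the log2 scale, adjusted p = 0.00178, limma), and the phosphatase gene Dusp1 rose by 1.48 (adjusted p = 0.0480, limma). Tsc22d3, which encodes the glucocorticoid-induced leucine zipper, was 31.3, 18.4 and 68.0 TPM in Veh and 161, 82.0 and 174 TPM in CORT, with no overlap and an adjusted p of 0.0623 (limma). The mannose receptor gene Mrc1, which sinusoidal endothelium also expresses, was 3.23 to 4.79 TPM in Veh and 6.51 to 14.9 TPM in CORT (adjusted p = 0.0676, limma).

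Some markers of the sinusoidal endothelium, the cells that line the vessels in which Kupffer cells sit, rose in the CORT-treated liver. Of the 12 markers, all tested, 6 passed (Lyve1, Oit3, Gpr182, Pecam1, Stab2 and Dnase1l3, by 0.78 to 3.37 on the log2 scale), beside 4.91% of all genes, and 6 did not (Cdh5, Kdr, Clec4g, Fcgr2b, Stab1 and Egfl7, adjusted p 0.0519 to 0.562, limma). For 11 of the 12, all but Egfl7, every CORT library was above every Veh library, beside 20.6% of all genes, and the median of the list was 1.04. Their summed level was 56.0 to 118 TPM in Veh and 180 to 206 TPM in CORT. Of the 10 stellate cell and fibroblast markers none passed with limma (median 0.19, 1 with an unadjusted p under 0.05). The part of other cell types in the level of Cd163 was not tested. Cd163 minus the mean of the other macrophage genes tested, both on the log2(TPM + 1) scale, was -1.13, -2.41 and -1.18 in Veh and 0.53, 0.63 and 0.55 in CORT. That mean included Maf, which rose, and Aif1, which fell. Whether the rise of Cd163 followed the number of macrophages was not tested. When every gene was set against that mean, an alternative added after seeing the data that lowered every liver difference by 0.25, Cd163 stood at 2.14 (adjusted p = 6.56e-05, limma) and none of the other 9 genes passed.

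**Figure D2:**
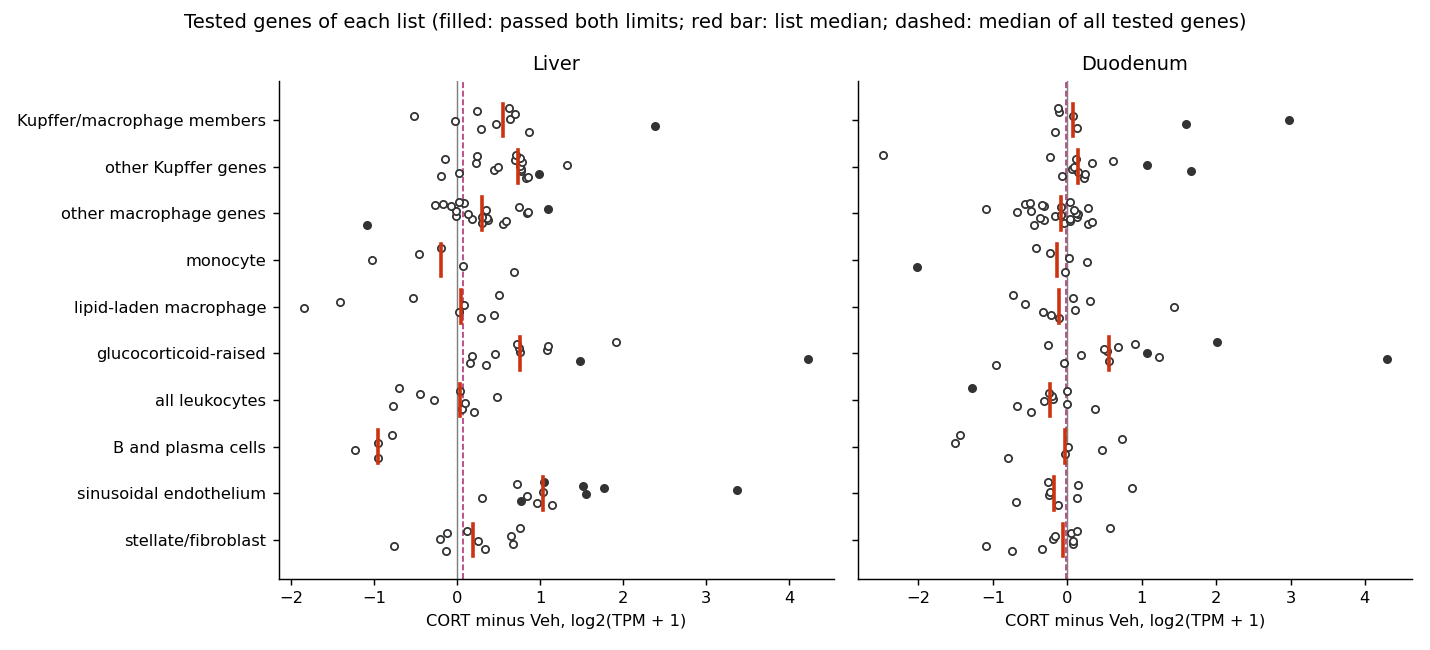
Difference between CORT and Veh on the log2(TPM + 1) scale for the tested genes of 10 lists in the liver and the duodenum (each circle, 1 gene; filled, passed the test; red bar, median of the list; dashed line, median of all genes tested). In the liver the other Kupffer cell genes have a median of 0.73 and the sinusoidal endothelial markers a median of 1.04, with 6 filled circles, while in the duodenum the medians of these 2 lists are 0.15 and -0.18.

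In the duodenum, 2 of the 10 genes were higher in the CORT-treated group, Clec4f and Cd163, beside 1.23% of all 13607 genes tested that were higher. Of the 10, 7 had a level at which they were tested, and Clec4f and Cd163 reached it through the CORT group alone, so that a difference was a condition of their being tested. Timd4 reached it through the Veh group alone (mean 1.10 TPM in Veh and 0.873 TPM in CORT), a condition in the other direction. With no such condition, among all genes above 0 in at least 1 library, Clec4f passed (adjusted p = 0.0236, limma) and Cd163 did not (adjusted p = 0.0850, limma). Of the 7, 4 had a difference above 0, beside 48.5% of all genes tested, and the median was 0.07 on the log2 scale, beside -0.01 over all genes. This count and this median include Clec4f, Cd163 and Timd4, whose direction was tied to how they came to be tested.

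Clec4f in the duodenum was 0.05, 0.15 and 0 TPM in Veh1 to Veh3 and 10.3, 5.31 and 7.42 TPM in CORT1 to CORT3. The groups did not overlap, as for 12.2% of the genes tested in this direction, and the difference was 2.99 on the log2(TPM + 1) scale (SE 0.24, 95% interval 2.42 to 3.55, adjusted p = 0.00450, limma). This scale understates the change of a gene that is near 0 in 1 group, and with a pseudocount of 0.1 TPM the difference was 5.59. The call was kept without any 1 library (adjusted p 0.00752 to 0.0228, limma). Of the 55416 genes in the table, 3 had Veh values no higher than 0.15 TPM together with CORT values no lower than 5.31 TPM, namely Clec4f and the gene models Gm37375 and Gm9973, a comparison made after the values of Clec4f were seen. The CORT level of 7.67 ± 2.50 TPM (SD, n = 3) was below each liver value of Clec4f, and the tables of the 2 tissues were scaled separately.

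Of the other genes used as markers of Kupffer cells in the liver, Vsig4, Marco and Cd5l were too low in the duodenum to be tested. Vsig4 was listed at 0 in all 6 duodenal libraries, Marco at 0 in 5 and at 0.20 TPM in CORT2, and Cd5l at 0, 0.03 and 0.05 TPM in Veh and 0.18, 0.03 and 0.13 TPM in CORT. Timd4, which intestinal macrophages also express, was 0.22, 1.76 and 1.32 TPM in Veh and 0.31, 1.42 and 0.89 TPM in CORT (difference -0.13, adjusted p = 0.882, limma). Of 9 hepatocyte markers, 5 were below 1 TPM in every duodenal library. The 4 others, which the intestinal epithelium also expresses in the case of Apoa1, Cps1 and Hnf4a, did not pass with limma. Apoa1 was 9631 ± 2189 TPM in Veh and 19495 ± 3389 TPM in CORT (SD, n = 3, no overlap, unadjusted p = 0.00280, adjusted p = 0.0752, limma), and Ttr, Cps1 and Hnf4a had differences of 0.27, 0.03 and -0.21 on the log2 scale. On the RefSeq map, Cd207 and Vax2 lie on the side of Clec4f from which it is transcribed and Stambp and Actg2 on the other side. Cd207 and Vax2 were listed at 0 in all 6 libraries, Stambp was 11.3 to 13.6 TPM in Veh and 9.27 to 12.6 TPM in CORT, and Actg2 113 to 303 TPM in Veh and 53.3 to 96.4 TPM in CORT.

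Cd163 in the duodenum was 0.17, 0.47 and 0.51 TPM in Veh and 2.01, 4.06 and 3.73 TPM in CORT. The ratio of the group means was 8.52, every CORT library was above every Veh library, and the difference was 1.60 on the log2 scale (SE 0.26, 95% interval 0.99 to 2.20, adjusted p = 0.0329, limma). The call depended on which libraries were kept. It ended without Veh1, Veh2, Veh3, CORT2 or CORT3 and was kept without CORT1, with adjusted p-values of 0.0375 to 0.111 and differences of 1.46 to 1.83. Hp was 0.51 to 0.79 TPM in the Veh duodenum and 1.31 to 12.9 TPM in CORT (adjusted p = 0.208, limma).

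The general macrophage genes did not differ between the groups beyond their spread in the duodenum. Adgre1 was 2.71, 4.88 and 6.32 TPM in Veh and 2.48, 4.39 and 4.98 TPM in CORT (difference -0.17, 95% interval -0.90 to 0.56). Csf1r was 14.7, 28.2 and 27.2 TPM in Veh and 16.1, 23.6 and 34.6 TPM in CORT (difference 0.07, 95% interval -0.72 to 0.87). C1qa was 57.8, 87.8 and 94.6 TPM in Veh and 73.8, 87.9 and 96.3 TPM in CORT (difference 0.12, 95% interval -0.38 to 0.63). For each of these genes the ranges of the groups overlapped, and Veh1 and CORT1 were the lowest libraries of their groups. The adjusted p-values were 0.795, 0.929 and 0.779 (limma).

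Of the 24 genes shared by most macrophages, all tested in the duodenum, none passed with limma, 3 had an unadjusted p under 0.05 (Tyrobp, Irf8 and Maf, all lower in CORT), and the median was -0.08. Of the 18 further Kupffer cell genes, 13 were tested and 2 rose, Hpgd and Mertk, beside 1.23% of all genes tested that rose. Hpgd, the prostaglandin-degrading enzyme that the intestinal epithelium also makes, rose by 1.67 (adjusted p = 0.0185, limma), and Mertk, a receptor for the uptake of dying cells, rose by 1.07 (adjusted p = 0.0272, limma). Mertk stood at 36.7 TPM in Veh, between Csf1r (23.4 TPM) and C1qa (80.1 TPM), and the cells it came from were not tested. Clec1b, which rose in the liver, was 1.51 to 2.68 TPM in Veh and 1.10 to 3.73 TPM in CORT. Of the 6 monocyte genes tested, 1 fell, Ly6c2, from 16.0, 33.5 and 23.8 TPM in Veh to 5.24, 7.55 and 3.09 TPM in CORT (-2.02 on the log2 scale, adjusted p = 0.0373, limma), beside 0.919% of all genes tested that fell. Plac8 and Ace, also among the 6, stood at 4900 and 497 TPM in Veh, far above Ly6c2. Which cells these genes came from was not tested. Of the 10 general leukocyte genes, 9 were below 0 (median -0.23), while 48.5% of all genes tested were above 0. Rac2, a GTPase of blood cells, fell by 1.28 (adjusted p = 0.0271, limma), the only 1 of these 10 to pass, beside the same 0.919%. Of the 13 glucocorticoid-raised genes tested, 3 rose, Fkbp5 (4.30), Tsc22d3 (2.01) and Mertk, beside 1.23% of all genes tested that rose. None of the 8 sinusoidal endothelial markers tested passed with limma (median -0.18, 2 with an unadjusted p under 0.05). Pancreatic acinar genes were high in the Veh2 and Veh3 duodenal libraries, with a summed level of 2579 to 51280 TPM in Veh and 2845 to 4311 TPM in CORT. With these genes removed and the libraries scaled again, Clec4f and Cd163 still passed (adjusted p = 0.00463 and 0.0326, limma).

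**Figure D3:**
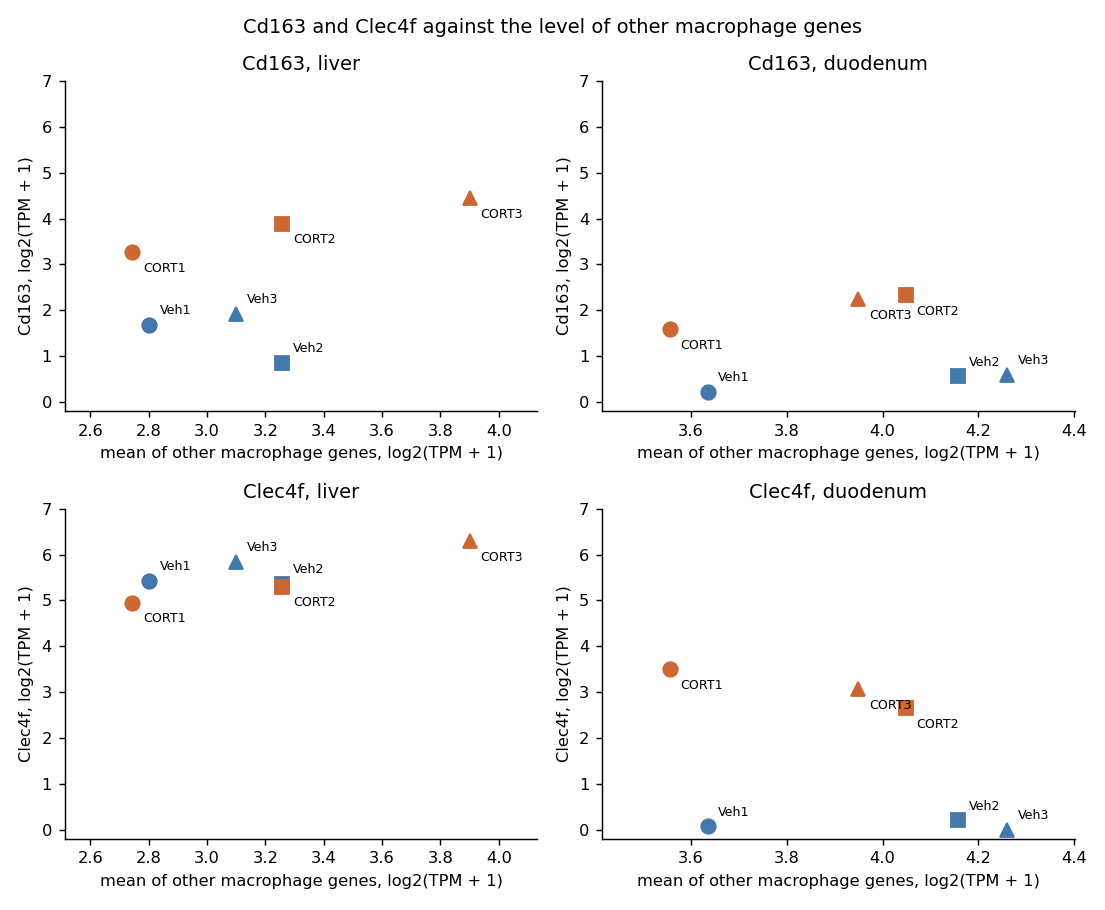
Cd163 (top) and Clec4f (bottom) against the mean of the other macrophage genes tested, in each liver (left) and duodenal (right) library, all as log2(TPM + 1) (blue, Veh; orange, CORT; labels, libraries). Cd163 lies higher in each CORT library than in any Veh library in both tissues, Clec4f is highest in the liver in CORT3, the library with the highest mean of the macrophage genes (3.90), and in the duodenum in CORT1, the library with the lowest (3.56).

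Lyz2 in the duodenum was 72.6, 87.8 and 116 TPM in Veh and 63.7, 131 and 71.4 TPM in CORT, and the groups overlapped (difference -0.11, adjusted p = 0.875, limma). These values are uncertain, because Lyz1, the lysozyme of Paneth cells, is a near copy of Lyz2 and stood at 843 to 2199 TPM in Veh and 1161 to 4288 TPM in CORT in the same libraries. In the liver Lyz1 was 0.14 TPM or less. The GENCODE (M21) transcripts of the 2 genes were identical at 96.0% of 1262 aligned bases, with a longest shared run of 118 bases and with 0 of the 1167 stretches of 150 bases of Lyz2 found unchanged in Lyz1. The reads were 150 bases long before trimming, so a full-length Lyz2 read would not match Lyz1 exactly. How the reads were divided between the genes cannot be seen in TPM and was not tested. The copies also resemble each other before the gene, as the 71 bases from -120 to -50 of each show, chr10:117282322-117282392 for Lyz2 and chr10:117292918-117292988 for Lyz1, both on the minus strand of GRCm38.p6. Capitals mark the bases that differ between them, and 62 of the 71 are the same.
Lyz2: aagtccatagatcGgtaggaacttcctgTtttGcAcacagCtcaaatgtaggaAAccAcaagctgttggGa
Lyz1: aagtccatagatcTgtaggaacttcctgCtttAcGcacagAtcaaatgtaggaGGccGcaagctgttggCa

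The response to CORT was then compared between the tissues in 1 fit of all 12 libraries, as the liver difference minus the duodenal difference. Clec4f was the only gene of the 10 whose response differed, by -3.00 on the log2 scale (SE 0.44, 95% interval -3.98 to -2.03, adjusted p = 0.00509, limma), beside 3.61% of the 14806 genes tested. Its call was kept in each of the 16 alternative fits, with adjusted p-values of 0.000746 to 0.0164. For Cd163 the difference between tissues was 0.79 (95% interval -0.27 to 1.85, adjusted p = 0.422, limma), so a response up to 1.85 larger in the liver lies within the interval. For Adgre1 and Csf1r, for which 2 CORT liver libraries were higher than any Veh liver library, the difference between tissues was 1.03 (95% interval -0.25 to 2.32) and 0.57 (95% interval -0.51 to 1.65), with adjusted p-values of 0.382 and 0.589 (limma). The labels do not tie the libraries of the tissues to shared mice, so the fit took all 12 as separate.

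**Figure D4:**
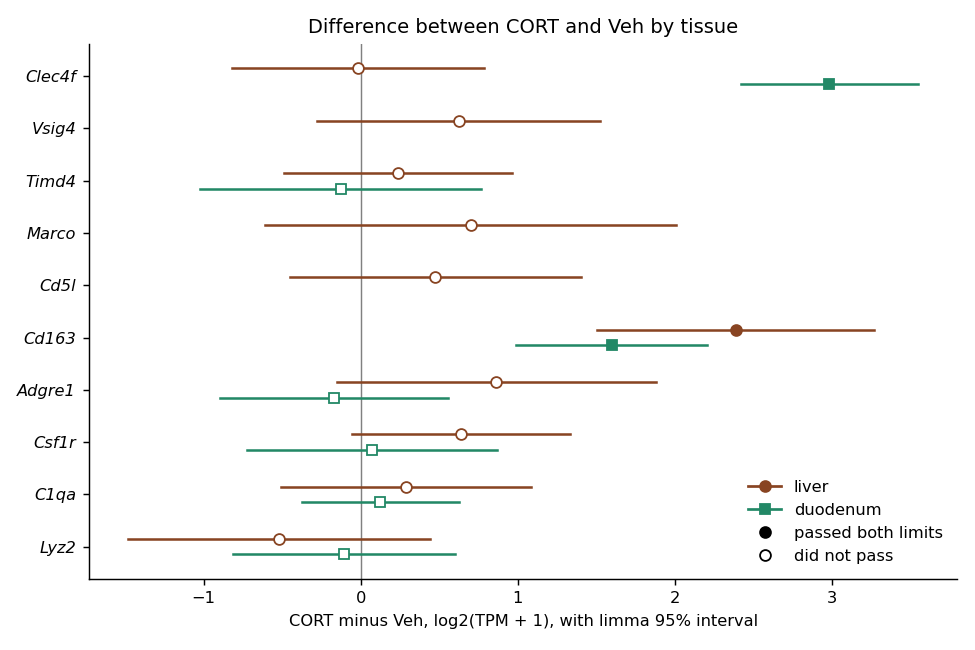
Difference between CORT and Veh on the log2(TPM + 1) scale with the 95% interval of the limma fit (brown circles, liver; green squares, duodenum; filled, passed the test; 3 libraries per group). Intervals lie to the right of 0 for Cd163 in both tissues and for Clec4f in the duodenum, and each other interval includes 0. Vsig4, Marco and Cd5l were too low in the duodenum to be tested.

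In order of level, the 10 genes in the Veh liver were Lyz2 (50.1 ± 21.2 TPM), Clec4f (45.9 ± 8.92), C1qa (40.2 ± 6.99), Cd5l (26.5 ± 1.83), Vsig4 (12.5 ± 2.73), Csf1r (6.94 ± 1.33), Marco (2.74 ± 0.685), Adgre1 (2.68 ± 0.903), Cd163 (1.93 ± 1.03) and Timd4 (1.48 ± 0.273), all mean TPM ± SD with n = 3. Lyz2, Clec4f and C1qa lay within each other's spread, as did Marco, Adgre1 and Cd163. In the CORT liver Cd163, at 14.5 ± 6.12 TPM, stood above Csf1r (11.9 ± 5.46 TPM), Marco (6.39 ± 5.13 TPM) and Adgre1 (6.48 ± 4.76 TPM) by mean, although its spread overlapped that of each of them. In the Veh duodenum the order was Lyz2 (92.3 ± 22.3 TPM, uncertain because of Lyz1), C1qa (80.1 ± 19.6 TPM, within the spread of Lyz2), Csf1r (23.4 ± 7.55 TPM), Adgre1 (4.64 ± 1.82 TPM), Timd4 (1.10 ± 0.793 TPM) and Cd163 (0.383 ± 0.186 TPM), with the 4 other genes at a mean under 0.1 TPM. In the CORT duodenum Clec4f (7.67 ± 2.50 TPM) came next after Csf1r (24.8 ± 9.32 TPM).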

How the data were processed

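RNA-seq of the liver and duodenum was analysed in 4 groups of 3 libraries, 12 in all, grouped by the sample labels. The authors made paired-end libraries, used SeqPrep and Sickle for trimming, HISAT2 for alignment, StringTie for assembly and RSEM for quantification, and deposited TPM per gene and library. Per the labels the build was GRCm39, and tool versions and the annotation release are not given in the sources used here. The authors called DEGs with DESeq2, which needs counts.

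From the deposited TPM, log2(TPM + 1) was fitted within each tissue with limma 3.58.1 in R 4.3.3 (trend on, treatment as the only term), on genes whose group mean reached 1 TPM in CORT or Veh (11699 in liver, 13607 in duodenum). The tissues were compared in 1 fit of 4 group means over 14806 genes. The fits were tested on simulated data. TPM keeps no depth, so counting intervals cannot be given, and fold changes of low genes are understated.

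The genes studied, the 20 marker lists and the tests were chosen with earlier results of these data known. The text names the 10 genes, the genes of each list that passed, the other C1q chains, the ligands of Csf1r, Lyz1, Fkbp5, Tsc22d3, and the 6 genes most correlated with the 10. Other genes were named after their values were seen. Promoters came from RefSeq (GRCm38.p6) and were searched for exact letters on both strands. The transcripts of Lyz1 and Lyz2 were aligned with Biopython 1.88. Alternatives were a pseudocount of 0.1 TPM, 2 other filters, median-ratio scaling, the replicate block, removal of acinar genes, and leaving out each library. Centring on other macrophage genes was added after seeing the data.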

Additional observations from a re-analysis of the deposited data

Results flagged for a closer look

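Clec4f responded differently to CORT in the 2 tissues. Its difference between CORT and Veh was -0.02 on the log2(TPM + 1) scale in the liver and 2.99 in the duodenum, and the test of the one against the other gave -3.00 (SE 0.44, adjusted p = 0.00509, limma). No other gene of the 10 differed in this way by that test.

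Maf, Ly6c2 and Hpgd also responded differently in the 2 tissues, beside 3.61% of all genes tested that did. They were picked from the genes named in the text and are not a count over all of them. The intestinal epithelium also makes Hpgd. Maf, which rose in the liver, was 36.6, 20.0 and 30.6 TPM in the Veh duodenum and 10.6, 12.5 and 15.3 TPM in the CORT duodenum, lower in every CORT library than in any Veh library (difference -1.10, adjusted p = 0.0731, limma), and the liver difference minus the duodenal difference was 2.19 (SE 0.30, adjusted p = 0.00320, limma). For Ly6c2 this quantity was 2.09 (adjusted p = 0.0416, limma), with the fall in the duodenum and 0.07 in the liver. For Hpgd it was -1.22 (adjusted p = 0.0260, limma), with the rise in the duodenum and 0.45 in the liver. For Clec1b, Aif1 and Il34, which passed in the liver alone, the difference between tissues did not pass (adjusted p = 0.402, 0.268 and 0.147, limma). With 3 libraries in a group, single libraries were not tested for lying apart from their group.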

How the results depend on the processing

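Cd163 in the liver and Clec4f in the duodenum kept their direction under every alternative run, and Clec4f kept its call in all of them. Without the filter on low values, limma called 0 of the 10 genes in the liver (Cd163, adjusted p = 0.0592) and 1 in the duodenum, with 283 and 52 genes called in all, against 810 and 292; more genes were then tested (23316 and 24876). The numbers on the replicates did not pair the libraries (correlations of deviations between -0.12 and 0.07). With the replicate block, 307 liver and 62 duodenal genes were called, and 1 of the 10 in the duodenum, where Cd163 had an adjusted p of 0.0631; no other of the 10 changed its call. At an unadjusted p under 0.05, 1808 and 1395 genes were called. Centring on other macrophage genes gave 421 liver genes. The share of liver calls that were higher was 71.0%, 54.1% with median-ratio scaling and 46.3% with that centring, and for the difference between tissues 63.9% became 49.6% with median-ratio scaling. In the duodenum 57.2% of calls were higher, 49.0% with acinar genes removed, 73.1% without the filter and 47.7% at an unadjusted p. The causes of these shifts were not tested.

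Leaving out 1 library gave 247 to 831 liver genes (fewest without CORT1), 66 to 237 duodenal genes (fewest without Veh3) and 289 to 626 genes for the difference between tissues (fewest without liver CORT1). The count among the 10 in the duodenum was then 1 to 2. Genes of the 10 that did not pass changed sign in some of these fits, in the liver Clec4f (-0.41 to 0.26), Timd4 (-0.058 to 0.53) and C1qa (-0.083 to 0.60), in the duodenum Timd4 (-0.48 to 0.11), Adgre1 (-0.44 to 0.066), Csf1r (-0.22 to 0.34), C1qa (-0.092 to 0.26) and Lyz2 (-0.42 to 0.091), and for the difference between tissues Cd5l (-0.059 to 0.81) and C1qa (-0.21 to 0.48). Centring turned Timd4 in the liver (-0.0088) and Timd4 (0.038) and Lyz2 (0.060) in the duodenum, and a pseudocount of 0.1 TPM turned the tissue difference of Cd5l (-0.22). The depth of the libraries is unknown, and values under 1 TPM may rest on few reads.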

Other observations

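The other marker lists held few genes that passed. Of all liver genes tested, 4.91% rose. In the liver, Hnf4a, a transcription factor of hepatocytes and gut epithelium, rose by 0.86 on the log2 scale (adjusted p = 0.0211, limma), Apoa4, an apolipoprotein of enterocytes that the liver also makes, rose by 3.94 (adjusted p = 0.0239, limma), and Mylk, the myosin light chain kinase of smooth muscle, rose by 0.87 (adjusted p = 0.0236, limma), each the only gene of its list past the test. In the duodenum, 2 plasma cell genes had unadjusted p-values under 0.05 and did not pass. Jchain, which encodes the joining chain of secreted antibodies, was 785, 965 and 883 TPM in Veh and 281, 488 and 212 TPM in CORT (adjusted p = 0.0568, limma), and Mzb1 was 28.2, 45.9 and 30.4 TPM in Veh and 11.1, 18.5 and 8.03 TPM in CORT (adjusted p = 0.0704, limma). Every CORT library was below every Veh library for both. Gpnmb, a gene of lipid-laden macrophages, was 0.58, 1.64 and 1.22 TPM in the Veh duodenum and 3.88, 6.74 and 3.88 TPM in the CORT duodenum, with no overlap and an adjusted p of 0.0516 (limma). Jchain, Mzb1 and Gpnmb were chosen after their values were seen.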
